A study of Homo sapiens with 15 samples.

Results

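Long intergenic non-coding RNAs carrying a LINC symbol were followed in human A549 tumours grown in mice. Of 2271 LINC rows among the 60649 human rows of the count table, 250 (11.0%) had at least 10 counts in at least 5 of the 15 libraries, and these 250 are the LINC RNAs described here. They were chosen by their counts, so their levels are given as a description. Another 1144 LINC rows had no count in any library.

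RNA was sequenced from 15 subcutaneous xenografts of A549 cells, an established line of human lung adenocarcinoma, each grown from transplanted cells in a nude mouse. The mice of the stress group (5 tumours) were restrained 7 days before transplantation, those of the post-stress group (5 tumours) were restrained 12 days after it, and those of the no-stress group (5 tumours) were not restrained. The labels do not say whether these days are durations or starting days, so the restrained groups may differ in how long as well as in when the mice were restrained. All groups share the same cell line and host, and nude mice lack mature T cells. Reads on human genes are taken to stand for the transplanted cancer cells and reads on mouse genes for the host cells in the tumour. Assignment of reads to the wrong species was not tested.

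LINC RNAs are transcripts of RNA polymerase II that lie mostly between protein-coding genes and have no recognised long reading frame. Many are spliced and polyadenylated like messenger RNAs but are kept at low levels, and their expression is often restricted to particular cell types. Some act on transcription of neighbouring genes, some hold together chromatin-modifying complexes or bind microRNAs and proteins, and for most no function is known. In lung adenocarcinoma, LINC00460, LINC00511 and LINC00857 have been studied as RNAs raised in tumours.

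By the GENCODE 29 annotation, which lists 249 of the 250, 196 were lincRNAs, 22 processed transcripts, 15 antisense RNAs and 9 transcribed unprocessed pseudogenes. A further 2 were bidirectional-promoter lncRNAs, 2 sense-intronic, 1 sense-overlapping, and 2 were still listed as protein-coding in that release. Most were spliced: 231 had at least 2 exon blocks and 18 had 1. Their median exon length was 2458 bp. They lay at a median of 62910 bp from the nearest protein-coding start, and 21 overlapped a protein-coding gene. Chromosome 1 carried 28 of them, chromosome 2 carried 24 and chromosome 7 carried 18. The strand setting of the counting is not given in the sources used here, so counts of RNAs that overlap another gene cannot be assigned with certainty.

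The minimum was met in all 15 libraries by 146 LINC RNAs and in 5 to 7 libraries by 26, and none met it through libraries of 1 group alone. Just inside it, LINC01127 had 102 counts in all and LINC00313 had 112, each with 5 libraries at 10 counts or more. Just outside, LINC01126 had 129 counts in all and LINC01732 had 123, each with 4 such libraries. LINC00941, which is studied in several carcinomas, had 0 counts, and LINC00958, LINC00665 and LINC01234 had 56, 87 and 94 counts over the 15 libraries.

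Libraries held 16729091 to 19680449 counts, of which 12877165 to 15892705 were on human genes. The mouse share was 18.6 to 24.6% in stress tumours, 12.4 to 23.0% in post-stress tumours and 15.6 to 30.2% in no-stress tumours. Of 14 genes of A549 cells and lung adenocarcinoma epithelium, 13 exceeded 1 CPM (human counts scaled to library size by TMM, in the usual CPM unit, here and below), and their summed level was 19038.8 to 22856.8 CPM in stress, 21226.0 to 25147.2 CPM in post-stress and 20605.8 to 26589.4 CPM in no-stress tumours. All 6 human leukocyte markers averaged under 1 CPM, with sums of 0.627 to 2.68 CPM in stress, 0.342 to 1.07 CPM in post-stress and 0.595 to 3.22 CPM in no-stress tumours. VWF, CDH5 and KDR, which mark endothelium, were likewise under 1 CPM, whereas PECAM1 averaged 14.4 CPM. Of 6 fibroblast genes COL1A2 and COL3A1 were under 1 CPM, and COL1A1, DCN, LUM and PDGFRB averaged 109.0, 15.3, 5.56 and 2.66 CPM. The fibroblast sum was 104.7 to 167.2 CPM in stress, 62.3 to 216.6 CPM in post-stress and 97.3 to 193.0 CPM in no-stress tumours. DCN averaged 22.9 CPM in stress, 14.7 CPM in post-stress and 8.36 CPM in no-stress tumours, a difference that did not pass in stress against no stress (edgeR adjusted p = 0.143). A549 cells were the only human cells transplanted, so these counts do not show human stromal or blood cells. Whether they come from A549 cells or from mouse reads assigned to human rows was not tested. In bulk RNA, fewer cells of a type and less RNA per cell cannot be told apart.

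LINC RNAs were a small and steady fraction of the human RNA. They took 0.108 to 0.134% of human counts, or 16046 to 19559 counts per library. Their summed level was 1229 ± 61.8 CPM in stress, 1208 ± 56.6 CPM in post-stress and 1196 ± 30.0 CPM in no-stress tumours (SD, n = 5 each). The lowest and highest tumours had 1160 and 1328 CPM in the stress group, 1120 and 1277 CPM in the post-stress group, and 1149 and 1230 CPM in the no-stress group, so that the 3 groups overlapped. The median LINC RNA had 1.91 CPM over the 15 tumours, against 19.2 CPM for the median of all tested human genes. There were 132 below 2 CPM, 85 at 2 to under 10 CPM and 33 at 10 CPM or more. The 8 highest supplied 26.9% of the sum and the highest alone 5.82%.

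Per kilobase of exon, LINC03033 on chromosome 14 was highest with 26.6 CPM per kb, followed by LINC02889 with 21.7, LINC00973 with 20.4, LINC01836 with 15.5, LINC03046 with 14.6, LINC00674 with 10.1, LINC00472 with 9.25 and LINC01269 with 8.95 CPM per kb. The first 3 of these have spreads that run into each other, as the plot by tumour shows. LINC03033 had 60.8, 69.3, 62.2, 70.4 and 60.0 CPM in stress tumours, 54.6, 60.5, 61.5, 93.7 and 88.4 CPM in post-stress tumours, and 104.7, 52.3, 72.9, 68.5 and 78.0 CPM in no-stress tumours. Its no-stress values enclosed all of the others. Its longest transcript matched 32 other genes over 72.4% of its length at 95% identity or more, so that its counts may be shared with copies. Its level also went with the mouse share of the library (Pearson r = 0.63 over the 15 libraries, a description), whose part in it was not tested. LINC00674 is classed as a pseudogene transcript and also had a match in 1 other gene, whereas LINC02889, LINC00973, LINC01836, LINC03046 and LINC01269 had no such match.

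**Figure D1:**
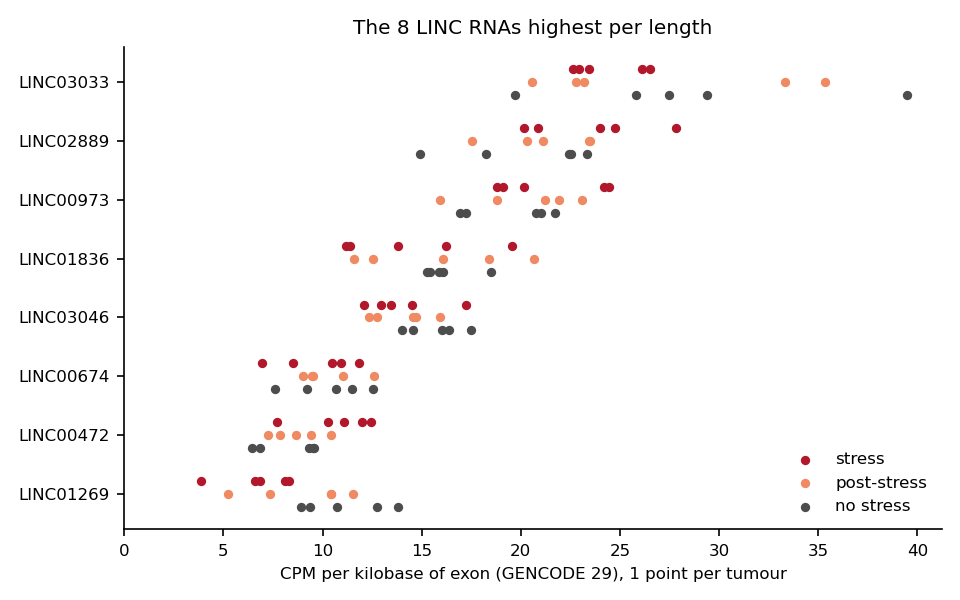
Levels of the 8 LINC RNAs highest per length, as CPM per kilobase of exon on a linear axis, with 1 point per tumour and a row of points for each of the stress, post-stress and no-stress groups. The groups overlap for 7 of the 8; for LINC01269 all 5 stress tumours lie below the no-stress range.

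By total counts the other abundant LINC RNAs were LINC00963, LINC02864, LINC00205, LINC00511 and LINC01833. LINC00963, first described in prostate cancer, averaged 48.1 ± 11.9 CPM in stress, 47.6 ± 5.2 CPM in post-stress and 40.6 ± 5.52 CPM in no-stress tumours (SD, n = 5 each). LINC02864 was the steadiest of them, with 44.5 ± 4.18 CPM in stress, 42.8 ± 6.1 CPM in post-stress and 44.3 ± 2.14 CPM in no-stress tumours. LINC00205, which starts 152 bp from the divergent gene POFUT2, averaged 35.0 ± 10.5 CPM in stress, 42.4 ± 7.21 CPM in post-stress and 39.2 ± 5.41 CPM in no-stress tumours. None of these RNAs passed the test in any comparison. LINC00472, described as growth-restraining in breast cancer, averaged 36.9 ± 6.44 CPM in stress, 30.0 ± 4.32 CPM in post-stress and 28.6 ± 5.41 CPM in no-stress tumours, and its log2 fold change of 0.36 in stress did not pass (edgeR adjusted p = 0.116).

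Among LINC RNAs known from lung and other carcinomas, LINC00460, LINC00511, LINC00662, LINC01116, LINC00857 and LINC01133 did not pass the test in any comparison. LINC00460 averaged 9.27 ± 2.3 CPM in stress, 9.37 ± 1.22 CPM in post-stress and 10.5 ± 2.06 CPM in no-stress tumours. LINC00511 averaged 24.0 ± 5.13, 23.5 ± 1.86 and 24.8 ± 5.78 CPM in stress, post-stress and no-stress tumours. LINC00662 averaged 22.6 ± 2.19, 21.6 ± 1.37 and 21.0 ± 2.73 CPM in the same order. Their log2 fold changes in stress against no stress were -0.19, -0.05 and 0.10, with SEs of 0.17, 0.15 and 0.10. LINC01116 and LINC00857 had log2 fold changes of -0.02 and -0.25, with SEs of 0.15 and 0.29. LINC01133 had 4.67, 6.41, 4.65, 3.79 and 5.86 CPM in stress tumours, 3.18, 2.74, 4.35, 2.44 and 3.49 CPM in post-stress tumours, and 1.55, 6.65, 2.85, 2.44 and 2.6 CPM in no-stress tumours. Its highest value of all was in a no-stress tumour, and its log2 fold change of 0.65 in stress did not pass (edgeR adjusted p = 0.177).

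The most variable of those above 1 CPM, by the SD of log2 CPM over the 15 tumours, were LINC01239 (SD 0.991), LINC03040 (0.964), LINC01832 (0.958) and LINC01176 (0.894), against a median SD of 0.407. LINC03040 had 2.86, 1.12, 4.17, 4.53 and 7.9 CPM in stress tumours, 4.49, 6.84, 6.31, 6.26 and 3.64 CPM in post-stress tumours, and 14.7, 2.93, 14.1, 1.86 and 3.72 CPM in no-stress tumours. The no-stress group held both of its highest tumours and was spread most widely, and no comparison passed. LINC01832 and LINC01176 averaged 1.38 and 1.2 CPM, where a tumour's value rests on few reads.

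Stress against no stress addresses which LINC RNAs differ in tumours of mice restrained before transplantation. LINC01239, LINC00923, LINC02984, LINC00862 and LINC00842 were higher and LINC00488, LINC00330, LINC02870 and LINC02747 were lower in stress tumours. These 9 of 245 tested LINC RNAs (3.67%) passed the test, against 10.5% of all 15435 tested human genes (5.23% higher and 5.22% lower), with an adjusted p under 0.05 in edgeR's quasi-likelihood test with Benjamini-Hochberg adjustment over all tested genes. At an unadjusted p under 0.05 there were 45 LINC RNAs (18.4%), against 26.1% of all genes. The other 5 of the 250 were too low to be tested: LINC01014, LINC01985, LINC02111, LINC02749 and LINC03044. P-values set each difference against the spread between tumours within groups. That spread was estimated over all 3 groups together, and the labels give the tumours as separate samples.

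LINC RNAs differed from other genes in level, and the share called differed with level in the table as a whole. Below 2 CPM, 3 of 127 LINC RNAs were called (2.36%) against 3.26% of all genes at that level. At 2 to under 10 CPM, 5 of 85 were called (5.88%) against 6.4%. At 10 CPM or more, 1 of 33 was called (3.03%) against 14.0%. This last class has no upper limit and is not matched in level. Its highest LINC RNA averaged 70.5 CPM, whereas KRT8, among the other genes, averaged 3697.6 CPM. The median SE of a log2 fold change was 0.30 for LINC RNAs and 0.14 for all genes. The difference between these shares was not tested.

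**Figure D2:**
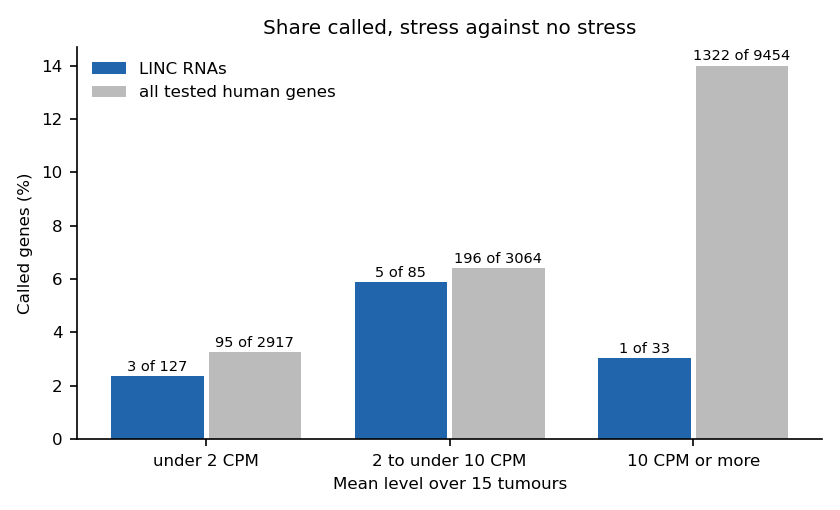
Share of genes called in stress against no stress (bars, percent, axis from 0) for LINC RNAs and for all tested human genes, in 3 classes of mean CPM over the 15 tumours, with the counts above the bars. The shares lie near each other below 10 CPM (2.36% and 3.26%, then 5.88% and 6.4%) and apart at 10 CPM or more (3.03% and 14.0%). The last class has no upper limit, and its LINC RNA share is 1 of 33.

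The log2 fold changes of the 245 tested LINC RNAs had a median of 0.06, with a middle 50% between -0.19 and 0.37. Over all tested genes the median was -0.01 and the middle 50% lay between -0.18 and 0.20. Positive values made up 55.9% of the LINC RNAs and 48.9% of all genes. The groups did not overlap for 6 LINC RNAs (2.45%), against 8.79% of all genes (4.09% higher and 4.7% lower). Every stress tumour lay above the whole no-stress range for LINC02984 and LINC00886, and below it for LINC00488, LINC02747, LINC01269 and LINC02693. Of these, LINC00886, LINC01269 and LINC02693 missed the threshold (edgeR adjusted p = 0.122, 0.0559 and 0.0556).

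**Figure D3:**
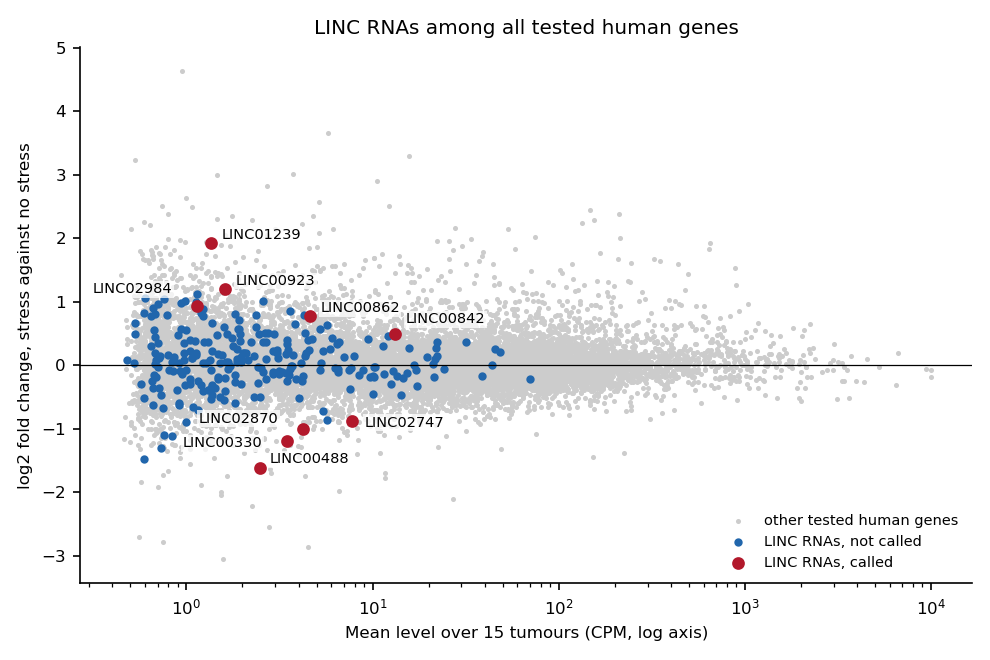
Log2 fold change in stress against no stress for every tested human gene, against its mean CPM over 15 tumours on a log axis, with the LINC RNAs in blue and the 9 called ones in red. LINC RNAs sit at the low end of the level axis, with 1 called RNA (LINC00842) above 10 CPM.

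LINC00488 gave the largest decrease among those called. It lies at chr3:109178143-109216965 on the plus strand (GRCh38, GENCODE 29) and had 1.05, 0.976, 1.68, 1.22 and 1.98 CPM in stress tumours, 1.31, 1.23, 2.95, 2.29 and 1.21 CPM in post-stress tumours, and 4.92, 4.99, 3.22, 4.87 and 3.2 CPM in no-stress tumours. All 10 tumours of restrained mice were below all 5 of the no-stress group. Its log2 fold change in stress was -1.61 (SE 0.29, edgeR adjusted p = 0.00401), which is 0.328 of the no-stress level. Its counts were 14 to 75 per library. The call held in each fit that left out a library, with adjusted p of 0.00302 to 0.0153.

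LINC02747, at chr11:69475567-69481545 on the minus strand, with the cyclin D1 gene CCND1 as its nearest coding gene, was the next by adjusted p. It had 4.67, 5.86, 5.05, 6.02 and 6.77 CPM in stress tumours, 7.25, 4.93, 7.64, 9.24 and 6.42 CPM in post-stress tumours, and 12.3, 8.91, 11.3, 12.0 and 7.51 CPM in no-stress tumours. All stress tumours were below all no-stress tumours, and the post-stress tumours lay between and across both. In stress its log2 fold change was -0.87 (SE 0.18, edgeR adjusted p = 0.00735), or 0.546 of the no-stress level. LINC00488 and LINC02747 were also among the most alike pairs of LINC RNAs over the 15 tumours (Pearson r of log2 CPM 0.85), a description in which both share the libraries and the group difference.

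LINC01239 gave the largest increase. It lies at chr9:22646200-22824213 on the plus strand and had 2.33, 3.56, 2.63, 1.01 and 2.68 CPM in stress tumours, 0.967, 0.547, 1.33, 1.22 and 0.855 CPM in post-stress tumours, and 0.421, 0.732, 0.557, 0.215 and 1.26 CPM in no-stress tumours. Of the 5 stress tumours 4 were above every tumour of the other groups. The log2 fold change in stress was 1.93 (SE 0.40, edgeR adjusted p = 0.00736), or 3.81-fold, on 3 to 51 counts per library. Against post-stress it was 1.31 (adjusted p = 0.18), and without stress replicate 4, the low tumour, that comparison passed with an adjusted p of 0.0494.

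LINC00923, at chr15:97572185-97874550 on the minus strand, had 2.79, 1.46, 3.7, 2.03 and 2.12 CPM in stress tumours, 1.45, 1.71, 1.05, 1.45 and 1.28 CPM in post-stress tumours, and 0.773, 0.732, 0.991, 1.29 and 1.49 CPM in no-stress tumours. The stress tumours were above the no-stress tumours in 4 of 5 cases, and the lowest stress tumour fell within the no-stress range. The stress group gave a log2 fold change of 1.20 (SE 0.28, edgeR adjusted p = 0.0144), or 2.29-fold. LINC00488, LINC02747, LINC01239 and LINC00923 kept their calls in stress against no stress without any library in turn and under the other scalings, tests, filters and model terms. With a log2 fold change of at least 1 also required, LINC02747 was no longer called.

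The other 5 calls depended on single libraries. LINC00862, at chr1:200253419-200400705 on the minus strand, had 5.35, 5.79, 6.13, 3.72 and 6.35 CPM in stress tumours, 3.87, 4.93, 6.1, 6.11 and 4.85 CPM in post-stress tumours, and 2.67, 3.92, 2.66, 4.01 and 2.75 CPM in no-stress tumours. In 4 of 5 stress tumours it exceeded the whole no-stress range, and its post-stress tumours lay near the stress ones. Its log2 fold change in stress was 0.77 (SE 0.20, edgeR adjusted p = 0.0211). The call was lost without no-stress replicate 1 (0.0601) or replicate 3 (0.0585). LINC00842, at chr10:46398362-46453306 on the plus strand, was the most abundant of those called, with 17.0, 12.7, 15.1, 16.1 and 18.9 CPM in stress tumours, 12.6, 11.5, 10.3, 14.3 and 13.6 CPM in post-stress tumours, and 11.7, 13.2, 12.7, 11.0 and 7.81 CPM in no-stress tumours. Here 4 stress tumours were above the no-stress range. In stress its log2 fold change was 0.50 (SE 0.14, edgeR adjusted p = 0.0356), and 19.5% of its longest transcript matched 3 other genes. The call was lost without stress replicate 1 (0.0798), 3 (0.053) or 5 (0.0836), or no-stress replicate 1 (0.0681), 4 (0.0569) or 5 (0.0621).

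LINC02870, at chr10:132444327-132449408 on the plus strand, had 1.73, 2.23, 3.5, 2.5 and 2.96 CPM in stress tumours, 4.63, 4.31, 6.87, 5.42 and 2.92 CPM in post-stress tumours, and 8.5, 3.19, 3.1, 5.44 and 5.8 CPM in no-stress tumours. The stress values were the lowest as a group, and the lowest no-stress tumours fell within them. It fell to 0.499 of the no-stress level in stress tumours (SE of the log2 fold change 0.29, edgeR adjusted p = 0.0364). The call was lost without stress replicate 1 (0.0966), 2 (0.0811), 4 (0.0556) or 5 (0.0577), or no-stress replicate 1 (0.128), 4 (0.0593) or 5 (0.0635). LINC00330, at chr13:44799503-44809630 on the minus strand, had 2.64, 1.95, 1.48, 2.77 and 1.62 CPM in stress tumours, 3.94, 6.43, 2.6, 3.13 and 1.28 CPM in post-stress tumours, and 6.74, 4.52, 4.71, 2.44 and 5.58 CPM in no-stress tumours. The lowest no-stress tumour overlapped the stress tumours, and the post-stress group spanned nearly the whole range. Its log2 fold change in stress was -1.19 (SE 0.35, edgeR adjusted p = 0.0378), and 6.19% of its longest transcript matched 92 other genes. The call was lost without stress replicate 1 (0.0622), 2 (0.0801), 3 (0.0897) or 5 (0.0851), or no-stress replicate 1 (0.111), 2 (0.0543), 3 (0.0724) or 5 (0.0666).

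LINC02984, on chromosome 8, had 1.88, 1.6, 1.48, 1.08 and 1.13 CPM in stress tumours, 1.24, 0.89, 1.47, 0.763 and 1.85 CPM in post-stress tumours, and 0.773, 0.865, 0.619, 0.788 and 0.669 CPM in no-stress tumours. All stress tumours were above all no-stress tumours, on 9 to 26 counts per library. Its log2 fold change in stress was 0.94 (SE 0.29, edgeR adjusted p = 0.0437), and 18.8% of its longest transcript matched 1 other gene. The call was lost without stress replicate 1 (0.115), 2 (0.0841), 3 (0.0801) or 5 (0.0512), post-stress replicate 1 (0.0513), or no-stress replicate 1 (0.0904), 2 (0.0558), 3 (0.104), 4 (0.065) or 5 (0.0751). No-stress replicates 1 and 5 had the highest mouse shares. When both were left out, the adjusted p of LINC02984, LINC00862, LINC00842, LINC02870 and LINC00330 was 0.164, 0.139, 0.168, 0.283 and 0.217.

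**Figure D4:**
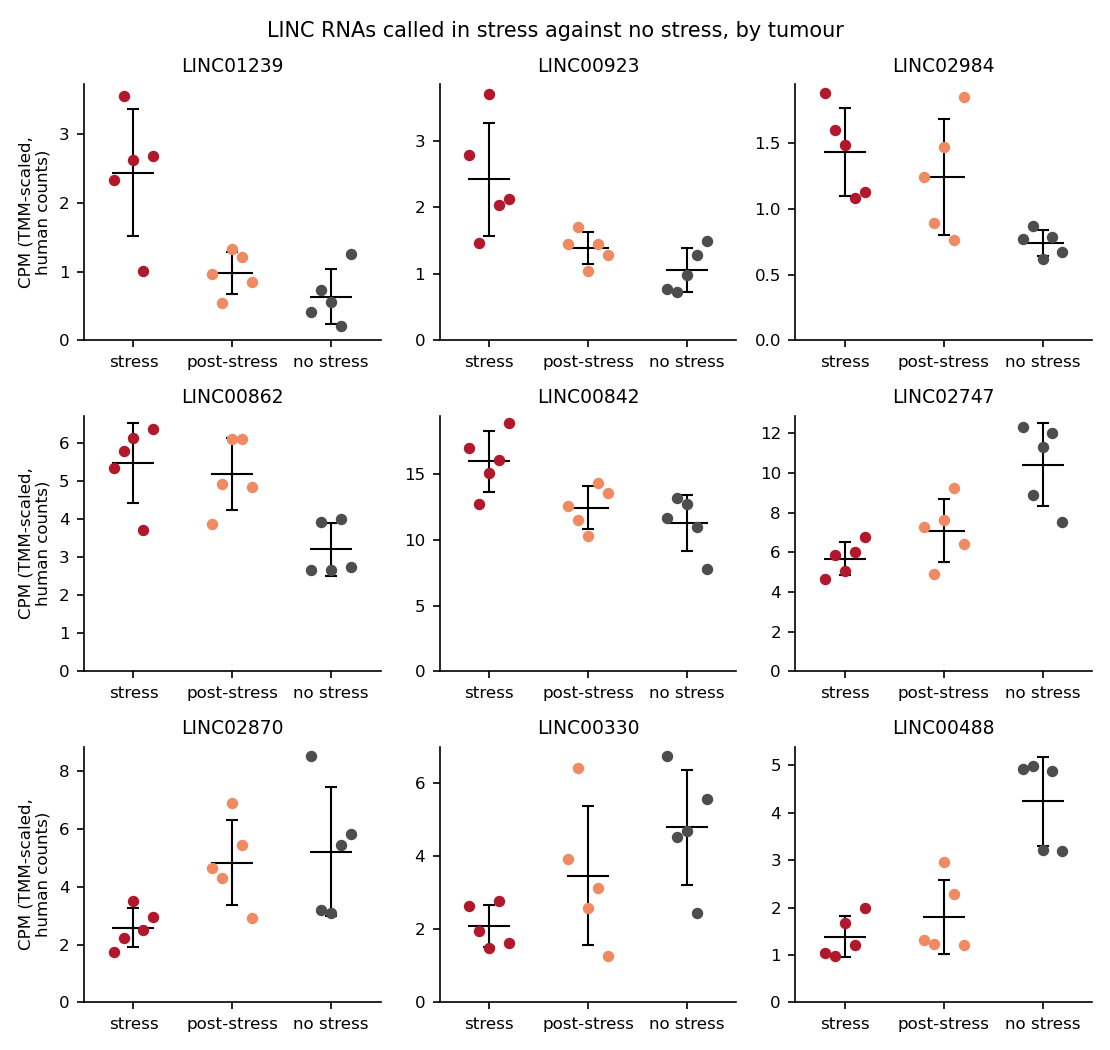
CPM of the 9 LINC RNAs called in stress against no stress, with 1 point per tumour and the mean ± SD of 5 tumours for the stress, post-stress and no-stress groups, on axes that start at 0. LINC00488 and LINC02747 (lower) and LINC02984 (higher) are separate between stress and no-stress tumours, and the post-stress tumours of LINC01239 lie with the no-stress ones.

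Over the 15 libraries the Pearson r of mouse share with log2 CPM of these 9 RNAs was between -0.27 and 0.27, a description that pools the groups. With the mouse share as a covariate, LINC00330, LINC02870 and LINC02984 were not called in stress (edgeR adjusted p = 0.0536, 0.056 and 0.0559). LINC00488 was then not called in post-stress against no stress (edgeR adjusted p = 0.138). The cause of these losses was not tested. Among all tested LINC RNAs 1 had r above 0.7 with the mouse share (LINC00623), which is 0.408%, against 0.402% of all tested genes.

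Promoter sequences show how different the starts of the called RNAs are. RefSeq (GRCh38.p14) gave 300 bases, the last 50 of them after the start, for 178 of the 250 LINC RNAs and for 6 of the 9 called ones. The 4 below are those of LINC00488 and LINC02747, the decreases with the lowest p, of LINC00923, whose call was stable, and of LINC00842, the most abundant called RNA, each read on its own strand with the RNA starting at base 251. Capitals mark matches to the motifs searched.
LINC00488: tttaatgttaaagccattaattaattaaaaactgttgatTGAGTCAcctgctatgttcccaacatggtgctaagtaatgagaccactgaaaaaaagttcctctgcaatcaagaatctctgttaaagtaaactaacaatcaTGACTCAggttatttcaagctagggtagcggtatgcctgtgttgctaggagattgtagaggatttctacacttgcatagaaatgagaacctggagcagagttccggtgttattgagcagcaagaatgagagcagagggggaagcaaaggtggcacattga
LINC02747: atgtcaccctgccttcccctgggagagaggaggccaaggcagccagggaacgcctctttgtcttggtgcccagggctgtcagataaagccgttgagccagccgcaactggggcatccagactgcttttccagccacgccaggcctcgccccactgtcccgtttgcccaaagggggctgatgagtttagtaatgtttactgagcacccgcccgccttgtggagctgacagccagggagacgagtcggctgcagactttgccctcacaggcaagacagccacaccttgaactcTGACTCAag
LINC00923: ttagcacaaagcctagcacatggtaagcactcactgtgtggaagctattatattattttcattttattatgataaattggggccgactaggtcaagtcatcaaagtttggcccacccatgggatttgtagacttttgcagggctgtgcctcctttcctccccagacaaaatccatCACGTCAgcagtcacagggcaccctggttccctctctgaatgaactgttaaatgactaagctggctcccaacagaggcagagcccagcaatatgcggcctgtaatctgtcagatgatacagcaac
LINC00842: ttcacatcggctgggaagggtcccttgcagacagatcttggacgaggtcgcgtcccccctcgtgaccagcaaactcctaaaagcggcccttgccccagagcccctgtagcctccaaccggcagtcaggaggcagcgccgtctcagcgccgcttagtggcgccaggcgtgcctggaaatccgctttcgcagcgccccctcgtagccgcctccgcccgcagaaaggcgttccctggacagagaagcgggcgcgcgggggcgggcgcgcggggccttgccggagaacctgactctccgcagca
These lie at chr3:109177915-109178214 on the plus strand, chr11:69479908-69480207 on the minus strand, chr15:97874380-97874679 on the minus strand and chr10:46398112-46398411 on the plus strand.

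Both strands were searched for ACGTG, the core bound by hypoxia-inducible factors, TGACG and TGACGTCA, the cyclic AMP response sites, TGANTCA, the AP-1 site, ACANNNTGT, the core of the glucocorticoid response element, and TTTCGCG, bound by E2F factors. The LINC00488 promoter held 2 matches to TGANTCA, a motif present in 7.71% of all 35116 promoters of the table and in 12.8% of the 203 promoters of LINC RNAs. The LINC02747 promoter held 1, at base 292, inside the transcribed stretch. LINC00923 held ACGTG and TGACG in 1 overlapping run of letters at base 176, and these motifs occurred in 21.4% and 24.6% of all promoters. LINC00842 held no match and was rich in CpG, with 31 CpG and 68.3% GC, against 2 CpG and 40.0% GC for LINC00488. The other called RNAs with a promoter entry, LINC00862 and LINC02870, also held no match to any motif searched. For LINC RNAs as a group the median was 8 CpG and 55.0% GC, against 14 CpG and 58.7% GC for all promoters. The RefSeq starts of LINC00862, LINC02747 and LINC02870 lie 26913, 1588 and 862 bp from their GENCODE 29 starts. Each of these windows is therefore 1 of several possible, and matches at other starts were not searched.

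Post-stress against no stress addresses restraint after transplantation. LINC00488 alone passed the test, and it was lower in post-stress tumours. That is 1 of 245 (0.408%), against 0.842% of all tested genes (0.596% higher and 0.246% lower). Means were 1.80 ± 0.784 CPM in post-stress and 4.24 ± 0.941 CPM in no-stress tumours (SD, n = 5 each), with a log2 fold change of -1.23 (SE 0.28, edgeR adjusted p = 0.0478). This call, close to the threshold, remained only without post-stress replicate 3 or no-stress replicate 5 among the 15 fits that left out a library, and adjusted p in the others ran up to 0.139. Both comparisons with no stress share the same 5 control tumours.

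At an unadjusted p under 0.05 there were 21 LINC RNAs (8.57%) in post-stress against no stress, and 15.2% of all genes. The groups did not overlap for 7 LINC RNAs (2.86%), against 3.47% of all genes (1.57% higher and 1.89% lower). Every post-stress tumour lay above the no-stress range for LINC00589, LINC00886, LINC01843 and LINC02970, and below it for LINC00488, LINC02693 and LINC02732. LINC02693 averaged 16.4 ± 1.17 CPM in stress, 15.4 ± 2.05 CPM in post-stress and 20.5 ± 1.93 CPM in no-stress tumours (SD, n = 5 each). All tumours of restrained mice were below all no-stress tumours, and neither comparison passed, with log2 fold changes of -0.42 in post-stress and -0.32 in stress (edgeR adjusted p = 0.0631 and 0.0556). The log2 fold changes of the other 8 RNAs called in stress were 0.62 for LINC01239, 0.40 for LINC00923, 0.74 for LINC02984, 0.69 for LINC00862, 0.14 for LINC00842, -0.46 for LINC00330, -0.11 for LINC02870 and -0.55 for LINC02747 in post-stress. None of these 8 passed, with adjusted p of 0.111 to 0.901. The median over tested LINC RNAs was 0.00, against -0.01 over all genes.

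Stress against post-stress sets the 2 restrained groups side by side. No LINC RNA passed edgeR's test, against 6 of 15435 tested genes (0.0389%). None passed DESeq2's Wald test either, against 1.32% of all genes in that test. At an unadjusted p under 0.05 in edgeR there were 23 LINC RNAs (9.39%), against 11.1% of all genes. The groups did not overlap for 2 LINC RNAs (0.816%), against 1.7% of all genes (0.952% higher and 0.752% lower). LINC02086 had 2.71, 1.12, 1.35, 2.3 and 1.2 CPM in stress tumours and 0.691, 0.479, 0.631, 0.916 and 1.07 CPM in post-stress tumours, with a log2 fold change of 1.19 (SE 0.32, edgeR adjusted p = 0.145). LINC01843 had 1.58, 1.74, 2.15, 1.55 and 1.91 CPM in stress tumours and 2.69, 2.81, 2.88, 2.52 and 2.49 CPM in post-stress tumours, with a log2 fold change of -0.58 (SE 0.23, adjusted p = 0.332). The median log2 fold change was 0.07 over LINC RNAs and -0.00 over all genes, and 59.2% of LINC RNAs were positive, against 49.2% of all genes. LINC02870, at -0.90 (adjusted p = 0.23), and LINC00923, at 0.80 (adjusted p = 0.26), did not pass, so that a difference between the restrained groups was not shown for any of the RNAs called.

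Protein-coding neighbours of the called RNAs did not pass the test in stress against no stress where they could be tested. CCND1, which encodes cyclin D1 and starts 159542 bp from LINC02747, had a log2 fold change of -0.01 (edgeR adjusted p = 0.972). DMRTA1, a DM-domain transcription factor gene 199359 bp from LINC01239, had 0.39 (adjusted p = 0.466). ARRDC4, an arrestin-domain gene 86148 bp from LINC00923, had 0.53 (adjusted p = 0.277). ZNF281, a zinc-finger transcription factor gene 9351 bp from LINC00862, had 0.14 (adjusted p = 0.422), and the annexin gene ANXA8L1, 22735 bp from LINC00842, had 0.21 (adjusted p = 0.371). PWWP2B near LINC02870 had -0.10 (adjusted p = 0.648) and NUFIP1 near LINC00330 had -0.17 (adjusted p = 0.497). C3orf85, nearest to LINC00488, averaged 0.0276 CPM and the kappa opioid receptor gene OPRK1, nearest to LINC02984, had no counts, so that neither was tested.

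Over 187 pairs in which the LINC RNA and its nearest protein-coding gene were both tested, the median Pearson r of log2 CPM over the 15 libraries was 0.17 (range -0.69 to 0.89). In 17 pairs with starts within 5 kb it was 0.31, against 0.16 for starts 5 to 100 kb apart and 0.19 for those over 100 kb apart. Rounded log2 fold changes in stress against no stress had the same sign in 8 of these 17 close pairs and in 115 of all 187. Some LINC RNAs share a neighbour, so that the pairs held 169 different protein-coding genes. In stress against no stress 19 of these were called (11.2%), against 10.5% of all genes, and no pair had both called. The pairs named next were chosen after their values were seen. LINC02593 and the divergent gene SAMD11, with starts 2912 bp apart, had the highest r, 0.89, and log2 fold changes of 0.85 and 0.96, neither of which passed (edgeR adjusted p = 0.0877 and 0.21). LINC01135 starts 801 bp from JUN, which encodes a subunit of AP-1, in the opposite direction. JUN rose in stress tumours with a log2 fold change of 1.33 (adjusted p = 0.00864), and LINC01135, at 0.81, did not pass (adjusted p = 0.273) on 145 counts in all. LINC01619 overlaps the antiproliferative gene BTG1 on the same strand. BTG1 rose with 0.64 (adjusted p = 0.00401), LINC01619 had 0.89 (adjusted p = 0.172), and their reads cannot be fully told apart. SETD1B, which encodes a histone methyltransferase and starts 274 bp from LINC01089, fell by 0.41 on the log2 scale (adjusted p = 0.0213), while LINC01089 had -0.08 (adjusted p = 0.852). The longest LINC01089 transcript matched 2 other genes over 61.0% of its length, so its counts may be shared with them.

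**Figure D5:**
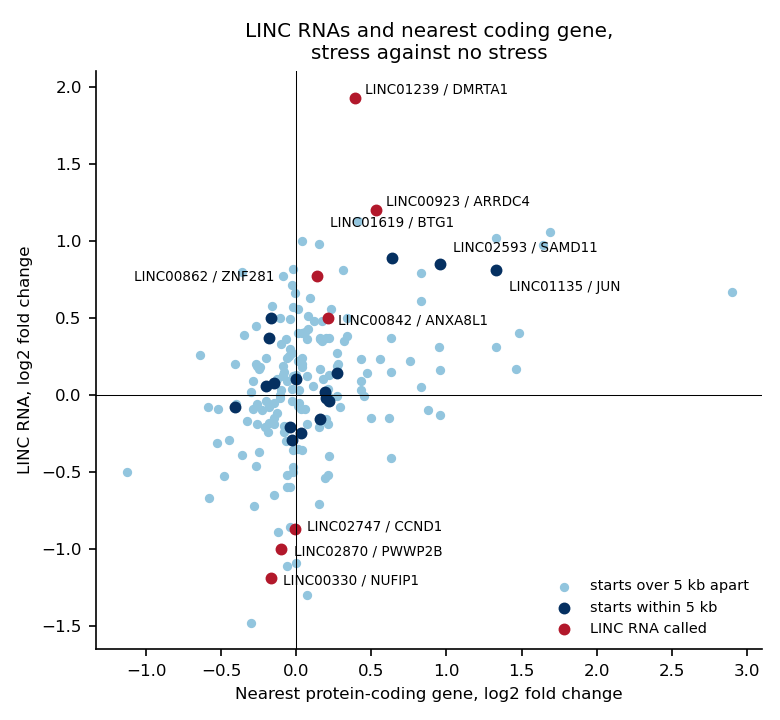
Log2 fold change in stress against no stress of LINC RNAs (vertical) and of their nearest protein-coding gene (horizontal) for 187 tested pairs, with 17 pairs whose starts lie within 5 kb in dark blue and called LINC RNAs in red. The called LINC RNAs lie at neighbour values between -0.17 and 0.53. JUN, SAMD11 and BTG1, named after their values were seen, share the upper right with LINC01135, LINC02593 and LINC01619. Of the 17 close pairs 8 had the same sign in both genes.

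Among the 118 LINC RNAs with at least 2 CPM, profiles over the 15 libraries were mostly unlike each other, with a median Pearson r of 0.03 over 6903 pairs that share libraries. Only 9 pairs had r above 0.8 and 3 had r below -0.8. The most alike were LINC00472 with LINC01322 (0.88), LINC00630 with LINC02057 (0.85), LINC00488 with LINC02747 (0.85), LINC01914 with LINC02057 (0.85) and LINC00641 with LINC01089 (0.84). LINC01322 was highest in stress replicate 5 with 10.1 CPM, the tumour in which LINC00472 also had its highest value, 42.9 CPM.

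Long non-coding RNAs with other names were counted from a list of 59, of which 44 were tested. In stress against no stress 5 were higher and 1 was lower, against 5.23% higher and 5.22% lower of all tested genes. The median log2 fold change was 0.20 over the 44 and -0.01 over all genes. HIF1A-AS3, a non-coding RNA of the locus of the hypoxia factor gene HIF1A whose reads may include those of its neighbour, averaged 10.8 ± 2.24 CPM in stress, 6.7 ± 1.77 CPM in post-stress and 3.55 ± 1.19 CPM in no-stress tumours (SD, n = 5 each), a log2 fold change of 1.60 in stress (edgeR adjusted p = 0.00137). LINC-PINT, whose symbol has no digit and which is a p53-induced RNA, averaged 7.75 ± 2.19, 7.01 ± 0.917 and 4.09 ± 0.581 CPM in stress, post-stress and no-stress tumours, a log2 fold change of 0.92 (adjusted p = 0.00713). MIR31HG, FTX and CRNDE rose with log2 fold changes of 0.64, 0.51 and 0.25 (adjusted p = 0.0158, 0.0192 and 0.0421). DANCR, which restrains differentiation, fell to 18.9 ± 5.39 CPM in stress tumours, against 34.1 ± 11.0 CPM in post-stress and 34.4 ± 1.79 CPM in no-stress tumours (log2 fold change -0.87, adjusted p = 0.0171). NEAT1, the scaffold of paraspeckles, and MALAT1, an RNA of nuclear speckles, had 0.55 and 0.42 and did not pass (adjusted p = 0.0653 and 0.0782). None of the 44 passed in post-stress against no stress or in stress against post-stress, where the medians were 0.14 and -0.02.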

How the data were processed

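The deposited table held raw gene counts of 15 libraries. Per the submitters' processing notes, the authors trimmed reads with Trimmomatic 0.39, aligned them with HISAT2 2.2.1 to hg38 and mm10 and made the counts with featureCounts 2.0.6. The sources used here give neither the strand setting nor the annotation release.

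Human rows were analysed alone. Symbols came from a reference table of gene names (60463 of 60649 rows). After filterByExpr, 15435 human genes entered 1 edgeR quasi-likelihood fit (edgeR 4.0.16, limma 3.58.1, R 4.3.3) with TMM scaling and all 15 libraries, with group as the only term. The 3 comparisons were adjusted by Benjamini-Hochberg over all tested genes. The threshold was an adjusted p under 0.05, and genes past it are called. SEs of log2 fold changes were derived from the F statistics. The biological coefficient of variation was 0.187. The procedure was tested on simulated data. Counting error is larger for low genes, and most LINC RNAs are low.

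The members and lists were chosen with earlier results of these data known. Named LINC RNAs are those called, the 8 highest by CPM and per kilobase, the 4 most variable above 1 CPM, and a list known from carcinomas; each called RNA's nearest protein-coding gene is named too. Others were chosen after their values were seen. Coordinates, exon lengths and neighbours are from GENCODE 29 (GRCh38), promoters from RefSeq (GRCh38.p14). Longest transcripts were compared with all other GENCODE 29 transcripts for matches of at least 100 bp at 95% identity. Of 249 LINC RNAs compared, 24 had 50% or more of the transcript matched, and their counts may be shared with other genes. Alternatives were other scalings, DESeq2 1.42.0, limma-voom, other filters, only the groups compared, a fold minimum, the mouse share as a covariate, a replicate block and leaving out each library.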

Additional observations from a re-analysis of the deposited data

Results flagged for a closer look

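In groups of 5 tumours, 102 sets of values of named LINC RNAs were examined for a tumour far from the other 4, and 7 stood out; chance alone flags about 1 in 20 groups. LINC02864 had its lowest no-stress value in replicate 2, 40.6 CPM, against 44.5 to 46.1 CPM in the others. LINC00511 had 33.0 CPM in stress replicate 5, against 20.3 to 23.1 CPM in the other stress tumours. LINC01836 had 16.1 CPM in no-stress replicate 3, against 13.3 to 14.0 CPM. LINC01832 had 2.28 CPM in post-stress replicate 5, against 0.622 to 1.05 CPM. LINC00857 had 1.96 CPM in post-stress replicate 3, against 3.28 to 3.74 CPM. LINC01133 had 6.65 CPM in no-stress replicate 2, against 1.55 to 2.85 CPM. LINC01116 had 7.31 CPM in no-stress replicate 4, against 10.7 to 11.4 CPM. None of these 7 is a LINC RNA called in a comparison.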

How the results depend on the processing

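In the comparisons in which they were called, none of the 9 called LINC RNAs changed direction under the alternatives run. Among their values that were not called, LINC02870 in post-stress against no stress (-0.11) was 0.13 with the mouse share as a covariate, 0.04 without post-stress replicate 5, 0.15 without no-stress replicate 1, and 0.31 when no-stress replicates 1 and 5 were left out; LINC00862 in stress against post-stress (0.08) was -0.01 without post-stress replicate 1. In stress against no stress, 9 LINC RNAs and 10.5% of all genes were called. DESeq2's Wald test called 16 (14.0% of all genes), a log2 fold change of at least 1 left 5, and the fit without no-stress replicates 1 and 5, chosen after seeing the data, called 4 (3.42%). Leaving out each library gave 4 to 13, with 4 when no-stress replicate 1 was left out (4.23%) and 5 when stress replicate 1 (5.0%) or stress replicate 5 (6.86%) was. The 13 came without stress replicate 4 (11.8%). The share of all genes also moved by over 1.5 times without stress replicate 2 (6.94%), stress replicate 3 (6.67%) or no-stress replicate 3 (5.53%). The number as a replicate block gave 5 (6.41%). Of 15 same-number pairs 1 had a correlation over 0.1, and 1 of 15 libraries matched its own number best. The labels do not say whether the numbers pair tumours. This check gave no sign of pairing but cannot exclude a weak one. Under the block the calls of LINC00330 (adjusted p = 0.0551), LINC00842 (0.0844), LINC02870 (0.0771) and LINC02984 (0.0831) were lost. In post-stress against no stress, 1 LINC RNA and 0.842% of all genes were called. Library totals alone gave 2 (0.784% of all genes) and DESeq2 gave 3 (3.27%). The number was 0 with only the groups compared (0.33%), the replicate block (0.369%) or the mouse share as a covariate (0.246%). It was also 0 without no-stress replicates 1 and 5 (0.201%). Leaving out each library gave 0 to 1 (0.237 to 0.92% of all genes). In stress against post-stress 0 were called (0.0389% of all genes), and 0 to 1 without each library. LINC01239 was called without stress replicate 4, as were 1.21% of all genes. With the mouse share as a covariate, LINC00330 (0.0536), LINC02870 (0.056) and LINC02984 (0.0559) were not called in stress. Calls in stress were also lost under limma-voom for LINC00330 (0.0564), LINC02870 (0.0742) and LINC02984 (0.0512), without a filter for LINC02984 (0.148), and with library totals alone for LINC00842 (0.0587). LINC00862 was called in post-stress by DESeq2 (0.0304). A minimum of 10 counts in all 15 libraries left 146 LINC RNAs. Without the highest LINC RNA the summed level was 1165 CPM in stress, 1136 CPM in post-stress and 1120 CPM in no-stress tumours. The cause of these shifts was not tested.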
